A study of Branchiostoma belcheri with 3 samples.

Results

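The microRNAs miR-375 and miR-7 were followed across 3 organs of Branchiostoma belcheri, an amphioxus, which is an invertebrate relative of the vertebrates. Every miRNA probe named miR-375 or miR-7 in any species was taken, and let-7, which is another miRNA, was not. This gave 18 of the 1686 miRNA probes on the array, 10 of miR-375 and 8 of miR-7. Each organ was measured on 1 array, one for the hepatic caecum (a blind sac that opens from the gut), one for the intestine and one for the gill. Each RNA sample was a pool from 5 wild-caught adults kept in seawater aquaria and fed on algae. The labels name no treatment, age or sex. Small RNA below 300 nt was stained with Cy3 and hybridised, so the values are brightness of spots (density, in scanner units). With 1 pooled sample per organ, array and organ cannot be told apart and no test between organs was possible. The errors below are SDs of the 2 spots of a probe on 1 array, and the number of arrays limits the precision. In a dissected organ, fewer cells of a type and less miRNA per cell cannot be told apart.

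A miRNA silences messenger RNAs that pair with its seed, the bases from position 2 to position 8. In vertebrates miR-375 is known as an abundant miRNA of pancreatic islets, where it restrains insulin secretion and supports the beta cell mass. miR-7 is an old miRNA shared by most bilaterian animals, and in vertebrates it is enriched in islets, pituitary and other neurosecretory cells. Amphioxus has no separate pancreas, and its hepatic caecum, a digestive diverticulum, has been compared with vertebrate liver and pancreas. In both hairpins 1 arm gives the main mature miRNA, the 3p arm for miR-375 and the 5p arm for miR-7, and the opposite arm is usually the rarer product.

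The deposited target sequences are shown first because probes of 1 miRNA that differed by few letters gave different densities. Capitals mark the seed. The 7 miR-375 targets of the 3p arm came from 2 amphioxus species (bbe, B. belcheri, and bfl, B. floridae), the sea squirt Ciona intestinalis (cin), zebrafish (dre), sea lamprey (pma), the acorn worm Saccoglossus kowalevskii (sko) and a sea urchin (spu).
bbe-miR-375-3p: uUUGUUCGuucggcucgcguuau
bfl-miR-375: uGUUCGUUcggcucgcguuaucu
cin-miR-375-3p: cUUGUUCGuucggcucgcgu
dre-miR-375: uUUGUUCGuucggcucgcguua
pma-miR-375b-3p: uUUGUUCGuucggcucgcguug
sko-miR-375: uUUGUUCGuucggcucgcgcga
spu-miR-375: uUGUUCGUucggcucgcgucaa
All 7 contain the run uguucguucggcucgcg of 17 nt, which is in 0 other miRNA targets on the array. The seed UUGUUCG was shared by 5 of them. The target bfl-miR-375 begins 2 bases and spu-miR-375 begins 1 base further along the same stretch, so the bases in their seed positions differ although the RNA they would bind is nearly the same. Counted from 1 at the 5′ end of bbe-miR-375-3p, dre-miR-375 has 0 substitutions, cin-miR-375-3p has U1C, pma-miR-375b-3p has A22G, sko-miR-375 has U20C and U21G, and spu-miR-375 has U21C and U23A. These 7 probes are therefore not separate measurements of different miRNAs.

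Of miR-7, 4 probes were named without an arm and begin with the same 9 bases. They came from zebrafish, lamprey and the frog Xenopus tropicalis (xtr). The only amphioxus probe of this miRNA was for the opposite arm, and no amphioxus target of the 5p arm was among the probes.
dre-miR-7a: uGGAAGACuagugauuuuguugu
xtr-miR-7: uGGAAGACuagugauuuuguug
dre-miR-7b: uGGAAGACuugugauuuuguu
pma-miR-7b: uGGAAGACuugugauuguguugu
bbe-miR-7-3p: cAGUAAAUcacagucuuccuua
The first 4 share the seed GGAAGAC, which 0 other miRNA targets on the array carry at that position. Counted from 1 at the 5′ end of dre-miR-7a, xtr-miR-7 has 0 substitutions and lacks the last base, dre-miR-7b has A10U, and pma-miR-7b has A10U and U17G. The other 3p targets of miR-7 were more distant from bbe-miR-7-3p, with 11 substitutions over 21 bases in cin-miR-7-3p, 6 over 22 in pma-miR-7a-3p and 5 over 20 in sko-miR-7-3p. The share of G and C was 47.8% or more in each of the 7 miR-375 targets of the 3p arm and 33.3% to 39.1% in the 4 miR-7 targets named without an arm. Genome positions of these miRNAs were not analysed here.

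The hepatic caecum densities were read with the grid turned by 180 degrees. In that placement its 596 control spots correlated with the mean of the other arrays at r = 0.977 on the log2 scale, against 0.261 as deposited. The 3372 miRNA spots had r = 0.870 turned and 0.006 as deposited. Spots without a probe (blanks, 304 per array) had a median density of 156 in hepatic caecum, 112 in intestine and 107 in gill. A probe counted as detected when its mean exceeded the mean of the blanks by more than 3 SDs, a threshold of 618 in hepatic caecum, 220 in intestine and 139 in gill. By this rule 7.18% of the miRNA probes were detected in hepatic caecum, 11.9% in intestine and 27.0% in gill.

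**Figure D1:**
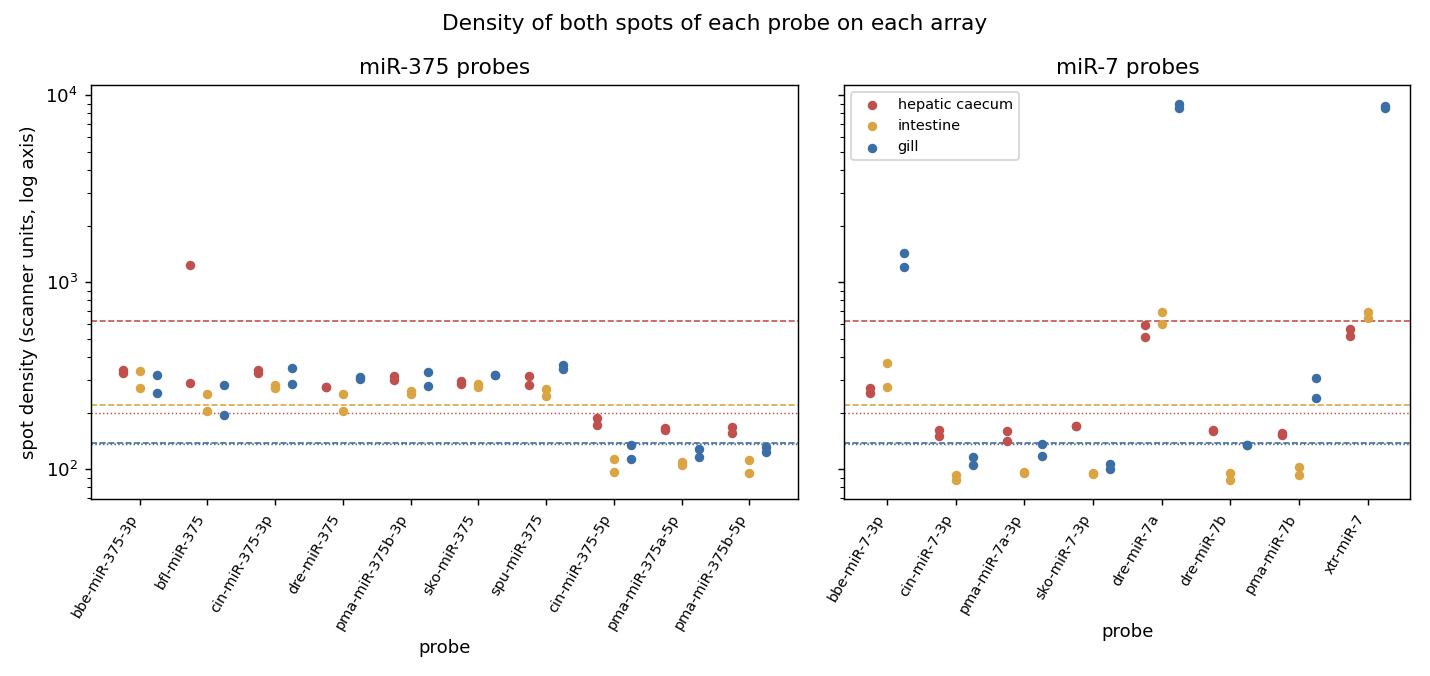
Density of both spots of each of the 18 probes (log axis, scanner units) on the hepatic caecum, intestine and gill arrays. Dashed lines are the thresholds of 618, 220 and 139 from the mean and SD of the blanks, and dotted lines those from their median. The miR-375 probes of the 3p arm lie between 196 and 361 in every organ apart from 1 hepatic caecum spot of bfl-miR-375 at 1243, whereas dre-miR-7a and xtr-miR-7 lie at 8500 or above in gill alone.

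The 4 miR-7 probes with one seed were of 2 kinds, bright and dim in gill. The probe dre-miR-7a had spot densities of 591 and 510 in hepatic caecum, 692 and 601 in intestine, and 8500 and 9000 in gill. For xtr-miR-7, which is 1 base shorter, they were 565 and 517 in hepatic caecum, 694 and 641 in intestine, and 8590 and 8773 in gill. In both probes the gill spots were the highest by far, the intestine spots were next, and the spots of the 3 organs did not overlap.

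The probes that carry A10U were dim on the same arrays. For dre-miR-7b both gill spots had 134, just under the threshold of 139, and its means were 162 in hepatic caecum and 91.5 in intestine, near or under the blanks. For pma-miR-7b the spots had 152 and 157 in hepatic caecum, 92.8 and 103 in intestine, and 307 and 240 in gill. It was thus detected in gill and in neither gut organ, as were 56.7% of the 455 gill probes for intestine and 74.3% for hepatic caecum. Densities of different probes depend on how well each binds and are not set against each other as amounts of miRNA.

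The opposite arm of the B. belcheri hairpin was seen as well. The probe bbe-miR-7-3p had spots of 256 and 271 in hepatic caecum, 369 and 274 in intestine, and 1428 and 1210 in gill. In plain density gill was again the highest, and the intestine and hepatic caecum spots were adjacent. The lowest intestine spot lay above the highest caecum spot by less than the gap between the 2 intestine spots. Among all miRNA probes of an array, however, this probe had similar percentile ranks of 90.5 in intestine and 89.9 in gill, and 85.2 in hepatic caecum. The other miR-7 probes of the 3p arm, from sea squirt, lamprey and acorn worm, had means of 151 to 171 in hepatic caecum, 90.1 to 96.1 in intestine and 104 to 127 in gill and were detected in none. In all, 0 of the 8 miR-7 probes were detected in hepatic caecum, 3 in intestine and 4 in gill, beside 7.18%, 11.9% and 27.0% of all miRNA probes.

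Intestine was then compared with gill. After normexp background correction and quantile normalization, dre-miR-7a had log2 levels of 9.99 in intestine and 11.18 in gill, a log2 difference of -1.19 ± 0.16 (spot SD, taken before normalization between arrays). For xtr-miR-7 the levels were 10.02 and 11.15 and the difference -1.13 ± 0.09. Both were at least 2-fold lower in intestine by the mean of the 2 spots, and both differences exceeded their spot error, but the first spots alone gave -0.70 and -0.68, under 2-fold. Among the 197 probes detected in both organs, 21.8% were at least 2-fold lower in intestine and 39.6% at least 2-fold higher. The opposite arm differed less, since bbe-miR-7-3p had levels of 9.0 in intestine and 8.78 in gill, and its difference of 0.23 ± 0.37 was within its spot error.

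The size of this contrast depended on how the arrays were scaled, and its sign for dre-miR-7a and xtr-miR-7 did not. Over the 197 probes the log2 differences had a median of 0.45 when quantile-normalized and of -1.62 with no normalization between arrays. Under the 7 scalings tried, dre-miR-7a ranged from -3.81 to -1.19 and xtr-miR-7 from -3.75 to -1.13. Relative to the median of the 197 probes they ranged from -2.19 to -1.63 and from -2.13 to -1.57. Scalings other than quantile normalization and cyclic loess shift a whole array by a constant and cannot change this relative value. For bbe-miR-7-3p the difference was above 0 under 3 of the 7 scalings and below 0 under the others, from -2.12 to 0.38, and from -0.50 to 0.00 relative to the median. On the plain density scale, after subtraction of the blank median, dre-miR-7a had 535 in intestine and 8643 in gill, a ratio of 0.0619, xtr-miR-7 had 555 and 8574, a ratio of 0.0648, and bbe-miR-7-3p had 210 and 1212, a ratio of 0.173.

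**Figure D2:**
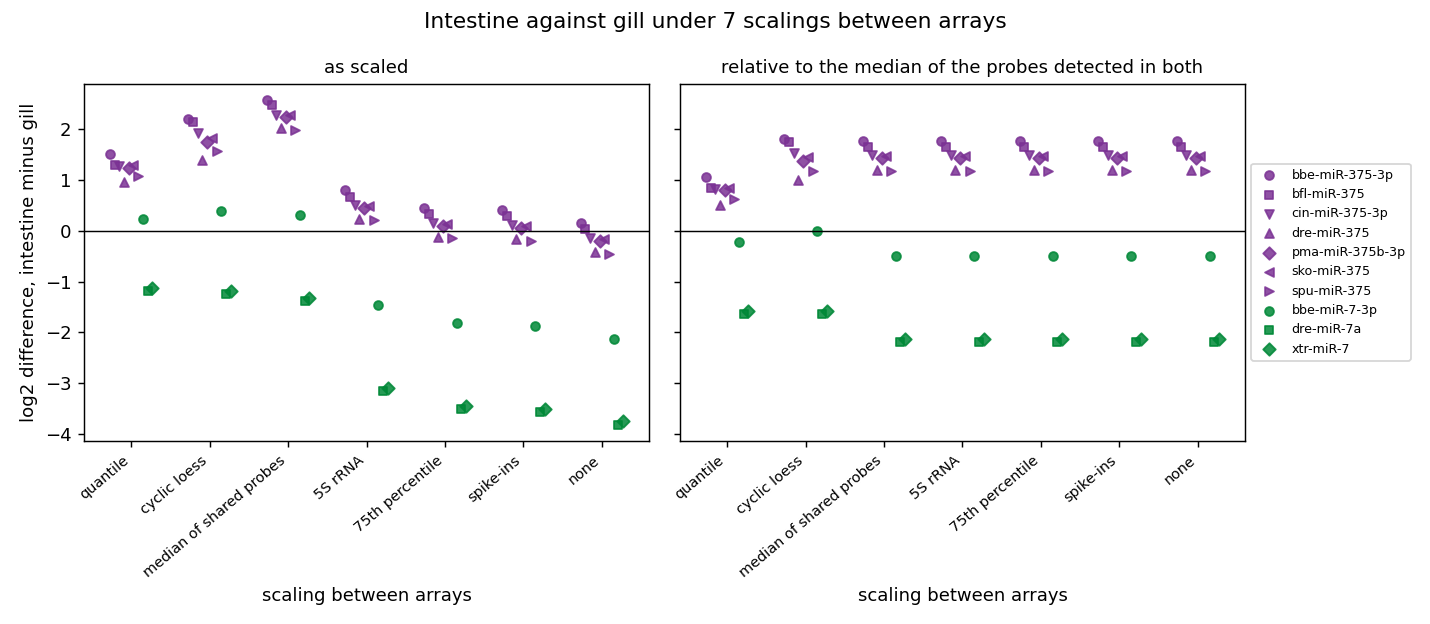
Log2 difference, intestine minus gill, of the 7 miR-375 probes (purple) and 3 miR-7 probes (green) detected in both organs, under 7 scalings between arrays, as scaled (left) and with the median of all 197 probes subtracted (right). The miR-375 points run from -0.45 to 2.57 on the left and from 0.50 to 1.81 on the right, while dre-miR-7a and xtr-miR-7 stay at -1.13 or below on both sides. On the right, all scalings other than quantile and cyclic loess give the same points, because a constant shift of an array cancels there. A probe had to pass the intestine threshold to be shown, which limits how low the miR-375 points can lie.

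The hepatic caecum was compared with gill next. No miR-7 probe was detected in hepatic caecum, so a bound was taken in place of a called difference. For dre-miR-7a and xtr-miR-7 the probe's own hepatic caecum level set the bound. It is therefore the plain difference in level, with no allowance for spot error. After quantile normalization dre-miR-7a was 2.54-fold and xtr-miR-7 2.63-fold lower in hepatic caecum than in gill. The levels were 9.84 and 11.18 for dre-miR-7a and 9.76 and 11.15 for xtr-miR-7. For dre-miR-7a the bound ranged from 2.07, from the first spots, to 50.4, with arrays centred on 5S rRNA. The bbe-miR-7-3p and pma-miR-7b probes gave no bound above 1-fold.

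Between hepatic caecum and intestine the same difference in level was small. After quantile normalization dre-miR-7a was 1.11-fold and xtr-miR-7 1.2-fold lower in hepatic caecum, again with no spot error taken. The caecum means of dre-miR-7a and xtr-miR-7, 550 and 541, lay under the threshold of 618 but far above most blanks there. Only 20 of the 304 blanks exceeded 201, the threshold that the median of the blanks plus 3 scaled median absolute deviations gives. Of the 201 probes detected in intestine 42.3% were missed in hepatic caecum, the 3 miR-7 probes among them. By the rule from the median of the blanks 3 of the 8 miR-7 probes were detected in hepatic caecum, 3 in intestine and 4 in gill, against 19.0%, 19.0% and 28.2% of all miRNA probes.

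The miR-375 probes behaved otherwise, with dim and nearly level signals in the 3 organs. The B. belcheri probe bbe-miR-375-3p had spots of 327 and 339 in hepatic caecum, 334 and 272 in intestine, and 256 and 318 in gill, so that the intestine spots overlapped those of both other organs. Over the 7 probes of the 3p arm the means ran from 276 to 765 in hepatic caecum, from 228 to 303 in intestine and from 240 to 352 in gill. Their medians were 308, 258 and 306 in the same order of organs. After subtraction of the blank median, the median density of the 7 probes was 152 in hepatic caecum, 146 in intestine and 199 in gill.

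Spots of individual probes show the same narrow band. The sea urchin probe spu-miR-375 had 281 and 314 in hepatic caecum, 246 and 268 in intestine, and 361 and 343 in gill, so gill was highest in plain density. The zebrafish probe dre-miR-375, identical to the B. belcheri target over its length, had 277 and 274 in hepatic caecum, 253 and 204 in intestine, and 310 and 303 in gill. These gill spots too lay above those of the other organs. The blank-subtracted ratios of intestine over gill, 0.592 for spu-miR-375 and 0.586 for dre-miR-375, were the lowest of the 7 probes. After quantile normalization both probes were instead higher in intestine than in gill, with log2 differences of 1.08 and 0.95.

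For miR-375 the 3 probes for the opposite arm, from lamprey and sea squirt, stayed at the blanks. Their means were 163 to 180 in hepatic caecum, 104 to 107 in intestine and 123 to 127 in gill, and 0 of the 3 were detected on any array by either rule. Of the 10 miR-375 probes, those of the 3p arm made up all that were detected, 1 in hepatic caecum, 7 in intestine and 7 in gill. The shares of all miRNA probes were 7.18%, 11.9% and 27.0%. With the rule from the median of the blanks, 7 were detected in each organ, beside 19.0%, 19.0% and 28.2% of all miRNA probes. The hepatic caecum count thus rested on the threshold, which on that array was raised by a few bright blanks.

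**Figure D3:**
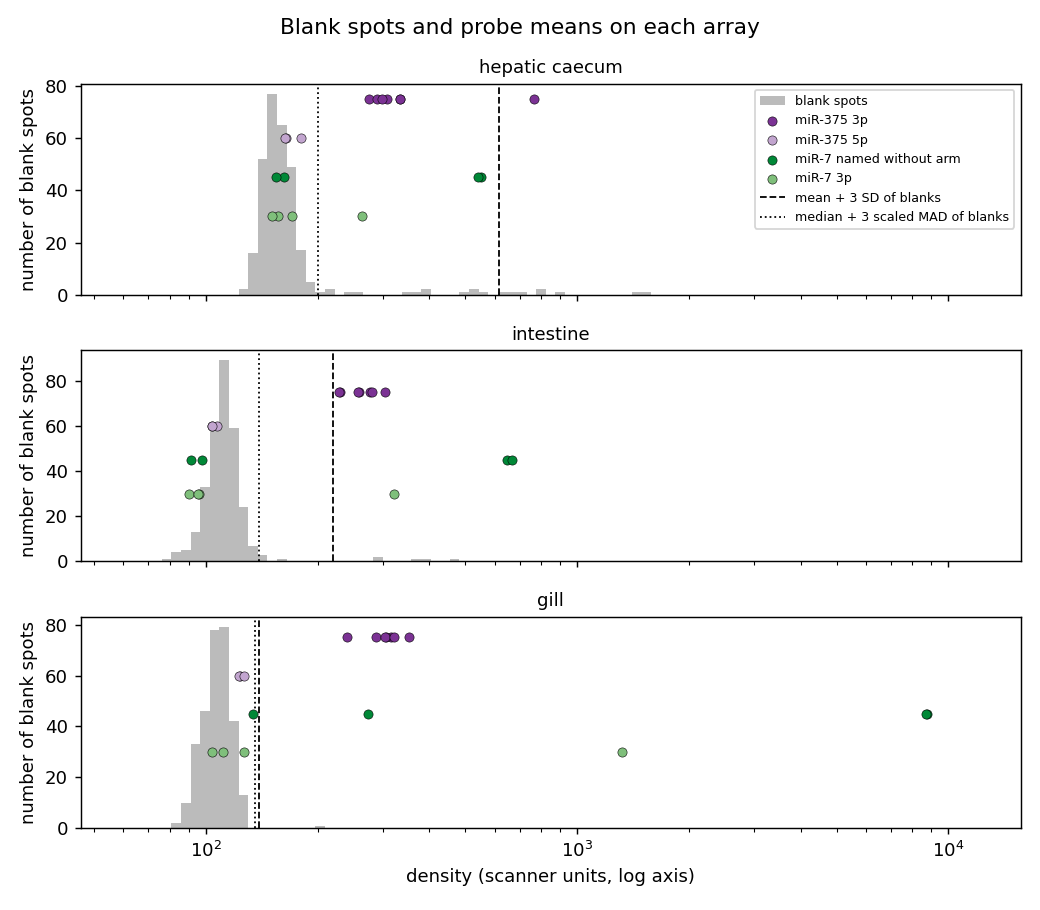
Histograms of the 304 blank spots of each array (grey, log axis in scanner units) with the means of the miR-375 and miR-7 probes drawn above them at arbitrary heights, and the thresholds from the mean (dashed) and the median (dotted) of the blanks. In hepatic caecum 6 of the 7 miR-375 3p probes lie between the thresholds of 201 and 618, clear of the bulk of the blanks.

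The single miR-375 probe called in hepatic caecum rested on 1 spot. The probe bfl-miR-375 had spots of 288 and 1243 in hepatic caecum, 254 and 206 in intestine, and 283 and 196 in gill. The brighter caecum spot was 4.32 times the other, while the median of this ratio over the 1686 probes on that array was 1.05 and 13 probes reached 4.32. The 8 spots around it had densities of 158 to 175. With both spots required to pass, 0 miR-375 probes were detected in hepatic caecum.

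Intestine against gill gave 6 of the 7 miR-375 probes detected in both organs as at least 2-fold higher in intestine and 0 as lower, beside 39.6% and 21.8% of all probes detected in both. The median of the 7 log2 differences was 1.28, from 0.95 for dre-miR-375 to 1.51 ± 0.34 for bbe-miR-375-3p. Detection set the direction of the 2-fold count. Only 11.9% of all miRNA probes passed the intestine threshold of 220. In gill the 7 probes had percentile ranks of at most 84.7. Quantile normalization sets levels by rank, so any of them that passed had to come out higher in intestine. By the rule from the median of the blanks, passed by 19.0% in intestine, the same 7 entered and the median difference was again 1.28. These differences depended on the scaling. With no normalization between arrays the median was -0.16, and on the blank-subtracted scale the ratio of intestine over gill had a median of 0.787 over the 7 probes, from 0.586 to 1.07. Relative to the median of the 197 probes, the median over the 7 was 0.82 after quantile normalization and 1.46 without it. All 7 probes lay above that median under each of the 7 scalings. Scalings other than quantile normalization and cyclic loess shift a whole array by a constant, which cancels in this relative value. The 7 scalings are thus not separate checks of it. The sign of this relative value was also largely set by detection. To be detected in intestine a mean had to exceed 220, against a blank median of 112. In gill the 7 probes had only 133 to 245 above the blank median. Without normalization, a detected probe this dim in gill could not fall to the median of -1.62. Of 17 probes of miR-1, a miRNA of muscle, 7 were detected in gill and only 4 in intestine. Probes that failed the stricter intestine threshold do not enter the comparison. The 4 miR-1 probes detected in both organs were all at least 2-fold higher in intestine after quantile normalization, with a median of 1.96. Without normalization between arrays their median was 0.00, and relative to the median of the 197 probes it was 1.51 and 1.62. Of the other muscle miRNAs, 7 of 17 miR-133 probes and the 1 miR-206 probe were detected in gill and 0 in intestine. The part of muscle in the miR-375 contrast was not tested. Among all 1686 probes of an array, the 7 probes had percentile ranks of 88.4 to 90.2 in intestine and of 82.1 to 84.7 in gill.

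The hepatic caecum comparisons of miR-375 rested on bfl-miR-375 alone. Its log2 difference was 2.74 ± 1.82 from gill and 1.45 ± 1.79 from intestine, where 41.0% of 117 and 24.1% of 116 probes passed 2-fold with hepatic caecum higher. The second of these did not exceed its spot error, and the first did so by less than 1 log2 unit. By the rule from the median of the blanks, where all 7 probes enter, the median difference was 1.06 from gill and -0.21 from intestine.

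Set side by side on the same 2 arrays, the 2 miRNAs had unlike contrasts between intestine and gill. The blank-subtracted ratio of intestine over gill was 0.586 or more in each of the 7 miR-375 probes of the 3p arm and 0.173 or less in the 3 miR-7 probes detected in both organs. Each ratio compares a probe with itself, and none has a replicate check. These ratios are not scaled between arrays, and without scaling the 197 probes detected in both organs had a median log2 difference of -1.62. Relative to that median bbe-miR-7-3p was near the other probes, from -0.50 to 0.00 over the 7 scalings. The low contrast of miR-7 beyond that of all probes thus rests on dre-miR-7a and xtr-miR-7, which differ only by the last base. The authors' deposited table gave a median log2 difference of 1.33 over the 7 miR-375 probes, close to the 1.28 after quantile normalization and unlike the blank-subtracted ratios, with 313 in intestine and 75.8 in gill for bbe-miR-375-3p and 168 and 79.3 for dre-miR-375. For miR-7 it gave 1320 and 3020 for dre-miR-7a, 1716 and 3690 for xtr-miR-7 and 369 and 436 for bbe-miR-7-3p. The scaling and background correction behind that table are not stated, and its hepatic caecum column follows the deposited names.

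The profiles nearest to each miRNA over the 3 organs were looked up among the probes detected on all arrays, as the distance between log2 levels centred on each probe's own mean. For dre-miR-7a, whose hepatic caecum level of 9.84 was not a detected value, the nearest were dre-miR-125a at a distance of 0.44, bfl-miR-135a at 0.58 and bfl-miR-2063 at 0.62. For bfl-miR-375, the miR-375 probe detected on all arrays, they were bbe-miR-33-3p and cin-miR-4171-5p, both at 0.57, and cin-miR-92e-5p at 0.63. This profile holds the hepatic caecum value that rested on 1 spot, and 3 organs leave little room for profiles to differ.

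Other miRNAs known from vertebrate islets or endocrine cells were counted from a list of 13 families with 139 probes. Of these probes 16 were detected in hepatic caecum, 19 in intestine and 52 in gill, beside 7.18%, 11.9% and 27.0% of all miRNA probes. Families with any detected probe numbered 3 in hepatic caecum, 3 in intestine and 12 in gill, and those seen in the gut organs were miR-9, miR-29 and miR-200. After quantile normalization, between intestine and gill 1 of 19 probes was at least 2-fold higher and 3 were lower, beside 39.6% and 21.8% of all probes detected in both. Between hepatic caecum and gill 5 of 16 were higher and 0 lower, beside 41.0% and 9.40%. Between hepatic caecum and intestine 9 of 16 were higher, 7 of them miR-200 probes, and 0 lower, beside 24.1% and 12.1%. The counts against gill moved with the scaling, as did those of all probes. With no normalization between arrays 19 of 19 were lower in intestine than in gill, beside 61.9% of all probes, and 15 of 16 were lower in hepatic caecum than in gill, beside 74.4%. Between hepatic caecum and intestine 9 of 16 stayed higher and 0 lower with no normalization, beside 22.4% and 19.0% of all probes. The same 9 and 0 came with cyclic loess and with centring on the 75th percentile or on shared probes. With arrays centred on spike-ins 1 was higher and 1 lower, beside 6.90% and 26.7%. Centred on 5S rRNA, 0 were higher and 7 of 16 lower, beside 0.862% and 79.3%.

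Markers of other tissues that the dissected organs could hold moved across the arrays too. Of 22 probes of the neural miRNAs miR-124 and miR-9, 1 was detected in hepatic caecum, 1 in intestine and 8 in gill, and their summed density over the blank median was 1843, 461 and 5960. Of these, miR-124 probes were detected in gill only, 2 of 10. For 29 probes of the sensory miRNAs miR-183, miR-96 and miR-182 the sums were 821, 24.8 and 2180, with 0, 0 and 10 detected. For 35 probes of the muscle miRNAs miR-1, miR-133 and miR-206 they were 816, 2430 and 3232, with 0, 4 and 15 detected. All 3 sums were highest in gill, as were the miR-7 densities, and their part in the miR-7 contrast was not tested. The sums are not scaled between arrays. Without such scaling, all probes detected in both organs had median log2 differences of -1.62 for intestine minus gill and -1.77 for hepatic caecum minus gill. Of all miRNA probes 7.18%, 11.9% and 27.0% were detected in hepatic caecum, intestine and gill. The 4 muscle probes detected in intestine were of miR-1. After quantile normalization 4 of 4 were at least 2-fold higher there than in gill, and 0 of 4 with no normalization between arrays. The neural and sensory lists are not separate from the endocrine-linked one, since their 5 families are in it and gave 18 of its 52 gill detections.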

How the data were processed

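Per the file headers, 1 deposited scanner file per organ lists 3968 spots with their median density, which is a linear intensity. Blanks above 0 show that background had not been subtracted. The deposited series table holds the authors' processed intensity per probe, with scaling and background correction not given in the sources used here. Densities were corrected with normexp (offset 50), converted to log2, averaged over the 2 spots of a probe and quantile-normalized over 1686 miRNA probes with limma 3.58.1 in R 4.3.3. Python 3.11.15 was used for the rest. The procedure was tested on simulated data with balanced changes in a part of the intestine probes. That setting lacks the overall difference between the real arrays, so it cannot test the scaling under it. Differences were called at 2-fold among probes detected in both organs. For a probe detected in 1 organ, a bound was taken against the higher of its own level and the lowest detected level in the other. Named were all probes detected on any array and all amphioxus probes of the 2 families. Members and lists were chosen with earlier results of these data known, and the turned grid was chosen after the data had been seen. Alternatives covered scaling, background, detection, single spots, the deposited table and the deposited names. All sample columns were mapped, leaving 0.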

Additional observations from a re-analysis of the deposited data

How the results depend on the processing

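No paired analysis was possible because each organ had 1 array. For the miR-375 median, intestine minus gill (1.28), the values were -0.16 with no normalization between arrays, 1.83 with cyclic loess, 0.13 centred on the 75th percentile, 2.27 on the median of shared probes, 0.09 on spike-ins and 0.48 on 5S rRNA. The miR-7 median for that pair (-1.13) was -3.75 with no normalization between arrays, -3.45 centred on the 75th percentile, -1.32 on the median of shared probes, -3.50 on spike-ins and -3.10 on 5S rRNA. It was -0.68 from the first spot only and -0.32 with no filter on dim probes. Its sign held in all 12 alternatives. Apart from the value with no filter, this median is over 3 probes, and 2 of them, dre-miR-7a and xtr-miR-7, differ only by the last base. The difference of the other, bbe-miR-7-3p, was 0.23 and ranged from -2.12 to 0.42 over its alternatives. The miR-375 value in hepatic caecum minus gill (2.74) was -0.16 centred on 5S rRNA and 0.83 with no filter. In hepatic caecum minus intestine (1.45) it was -0.83 on 5S rRNA, -0.15 with no filter and -0.21 (1.06 from gill) by detection from the median of the blanks, an alternative for differences that was chosen after seeing the data. The cause of these shifts was not tested. The 1 miR-375 probe detected in hepatic caecum became 7 by the median of the blanks, 0 with both spots over the threshold and 0 under the deposited names, and the 0 miR-7 probes became 3 by the median of the blanks. The 5S rRNA scaling rested on 3 probes. Under the deposited names no hepatic caecum difference could be had. Relative to the median of all probes detected in the pair, the miR-375 value was also followed over 7 alternatives of scaling and background correction. It ranged from 1.89 to 3.04 in hepatic caecum minus gill and from 1.11 to 1.30 in hepatic caecum minus intestine. Alternatives that shift a whole array by a constant cannot change this relative value, so its sign was fixed under them. It also rests on bfl-miR-375 alone, with its 1 bright hepatic caecum spot.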
